A study of Homo sapiens with 12 samples.

Results

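TD5 and D11, both Dicer1 (+/-) clones of one thyroid cancer cell line, were compared with each other across all genes. The comparison used 6 of the 12 RNA-seq libraries of the series, 3 from each clone, taken by the clone name and replicate number of each column in the deposited table. Of the 58302 genes in that table, 16027 passed the filter on low values and were tested. Both clones came from TPC1, a papillary thyroid carcinoma line, after transient transfection of one CRISPR-Cas9 plasmid and plating at 1 cell per well, and both kept a wild-type DICER1 allele. The other allele had lost 185 nucleotides in TD5 and 20 nucleotides in D11. The cell line tag of D11 reads TPC1, while that of TD5 names the Dicer1 (+/-) line, so D11 was identified by its title. In the treatment text the number in the cell line name counts up across samples, and it was read as TPC1 throughout. The cells grew in RPMI medium with serum and antibiotics, and apart from that number the labels name no treatment that differed between the clones. Each deletion was thus represented by 1 clone, so an effect of the deletion cannot be told apart from any other difference between the founder cells. TPC1 and a further Dicer1 (+/-) clone, WB1, with 3 libraries each, entered the fit for the spread between libraries and are given beside the clones as a description. The labels do not say whether the 3 libraries of a clone came from separate cultures, so the p-values measure the spread between these libraries, which may be technical.

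Dicer1 is the RNase III enzyme that cuts hairpin precursors into mature microRNAs. A mature microRNA is loaded into an Argonaute protein and pairs through its seed with sites in mRNAs, which lowers their stability or translation. One DICER1 allele is lost in inherited and sporadic tumors, the thyroid among them, while complete loss is poorly tolerated. Mature microRNAs were not measured in these libraries, and protein levels were not analysed here.

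The sequence that defines both clones is the guide target in DICER1 (ENSG00000100697, chromosome 14, minus strand). The guide, with its PAM in capitals, matched GRCh38 once within the gene, at chr14:95115685-95115707 on the plus strand, and the expected Cas9 cut lies between positions 95115701 and 95115702. It falls in exon 11 of the 27 exons of transcript ENST00000343455.8. This coding exon spans chr14:95115667-95115821 and is written here 5′ to 3′ on the minus strand, the direction of transcription, with the guide target in capitals.
guide with PAM: gccgtgttgattgtgactcgTGG
DICER1 exon 11: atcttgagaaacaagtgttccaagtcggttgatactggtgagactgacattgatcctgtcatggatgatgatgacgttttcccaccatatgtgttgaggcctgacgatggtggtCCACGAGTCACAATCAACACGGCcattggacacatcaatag
The exon is 155 bases long, so the 185-nucleotide deletion of TD5 is longer than the exon, while the 20-nucleotide deletion of D11 is shorter.

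DICER1 mRNA was lower in TD5 than in D11. Values are given throughout as scaled reads, that is, reads of a gene per 20000000 reads of the library, in the order of replicates 1, 2 and 3. DICER1 was at 977, 1051 and 1093 in D11 and at 643, 627 and 809 in TD5, and the libraries of both clones did not overlap. The mean was 1040 ± 58.7 in D11 and 693 ± 101 in TD5 (SD, n = 3 each), so TD5 had 66.6% of the D11 level. On the log2(value per 1000000 + 1) scale the difference was -0.58 (SE 0.10, limma with Benjamini-Hochberg adjusted p = 0.000657), just short of the minimum of 1.5-fold that a call needed. The exact permutation test of the 3 against 3 libraries gave p = 0.1 (two-sided), the smallest value that this design allows. DICER1 passed both thresholds with voom (-0.59), with a pseudocount of 0.1 (-0.59), without D11 replicate 1 (-0.62) and without TD5 replicate 3 (-0.69). With a correction of each library for the GC content of genes the difference was -0.37. The means of WB1 and TPC1, 878 and 1197, lay on either side of D11. In bulk RNA, fewer expressing cells and less RNA per cell cannot be told apart.

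**Figure D1:**
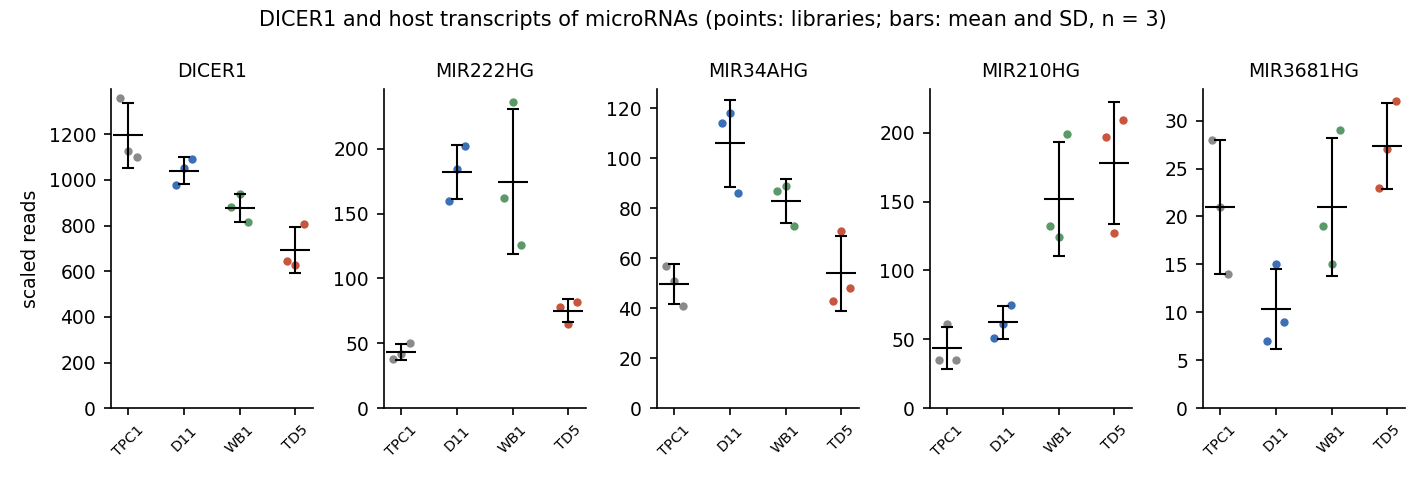
Scaled reads of DICER1 and of the 4 microRNA host transcripts that were called between TD5 and D11, for the 3 libraries of each line (points), with the mean and SD (bars). DICER1 is lowest in TD5, MIR222HG and MIR34AHG are lower in TD5 than in D11, and MIR210HG and MIR3681HG are higher.

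The depth of the libraries was 14579743, 16794395 and 16456912 reads in D11 and 12698466, 14238925 and 15900852 reads in TD5, as recovered from the steps between scaled values. A floor of 3 reads therefore corresponds to 3.57 to 4.72 scaled reads, for counting error only. The TD5 libraries differed more among themselves than the D11 libraries: the chi-square per gene was 4.98 to 11.2 for pairs of TD5 libraries and 3.11 to 3.25 for pairs of D11 libraries, all above sampling noise. Of the thyroid follicular markers, the transcription factor PAX8 was at 7547 to 8088 in D11 and 8950 to 9753 in TD5, whereas NKX2-1, TSHR and SLC5A5 were at 0 in all 6 libraries. Of the epithelial markers, KRT8 and KRT18 were each at 5237 or above in every library, but CDH1 and EPCAM were at 5 or below. The summed level of the immune markers was 981 to 1130 in D11 and 1211 to 1364 in TD5, nearly all of it CD68, with CD3E at 0. The 3 endothelial markers summed to at most 9, and the 6 fibroblast and muscle markers to 521 to 592 in TD5 and 525 to 531 in D11.

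A gene was called when its limma adjusted p was under 0.05 and it changed by at least 1.5-fold. Between TD5 and D11, 640 genes were called, 3.99% of those tested. Of these, 268 (1.67%) were higher in TD5 and 372 (2.32%) were lower, and the median difference of all tested genes was -0.05 on the log2 scale. Without the minimum fold change, 1351 genes (8.43%) were higher and 2370 (14.8%) lower at the same adjusted p. The 3 TD5 libraries lay above the 3 D11 libraries for 2386 genes (14.9%) and below them for 3644 (22.7%). Among called genes this separation was almost complete, for 629 of 640. Genes past 2-fold were mostly higher in TD5, 89 against 49.

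The balance of higher and lower calls depended on the scaling. It was 268 to 372 as reported, 310 to 282 with median-of-ratios scaling, 290 to 228 with the GC correction and 342 to 247 with a correction for transcript length. Without TD5 replicate 3 it was 260 to 645. Called genes also differed in GC content, with a median of 53.4% for those higher, 44.5% for those lower and 49.4% for all tested genes, and beyond the correction its part in the result was not tested. Of 12540 tested protein-coding genes 4.12% were called, and of 2367 long non-coding RNAs 3.34%, both near the 3.99% of all genes.

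**Figure D2:**
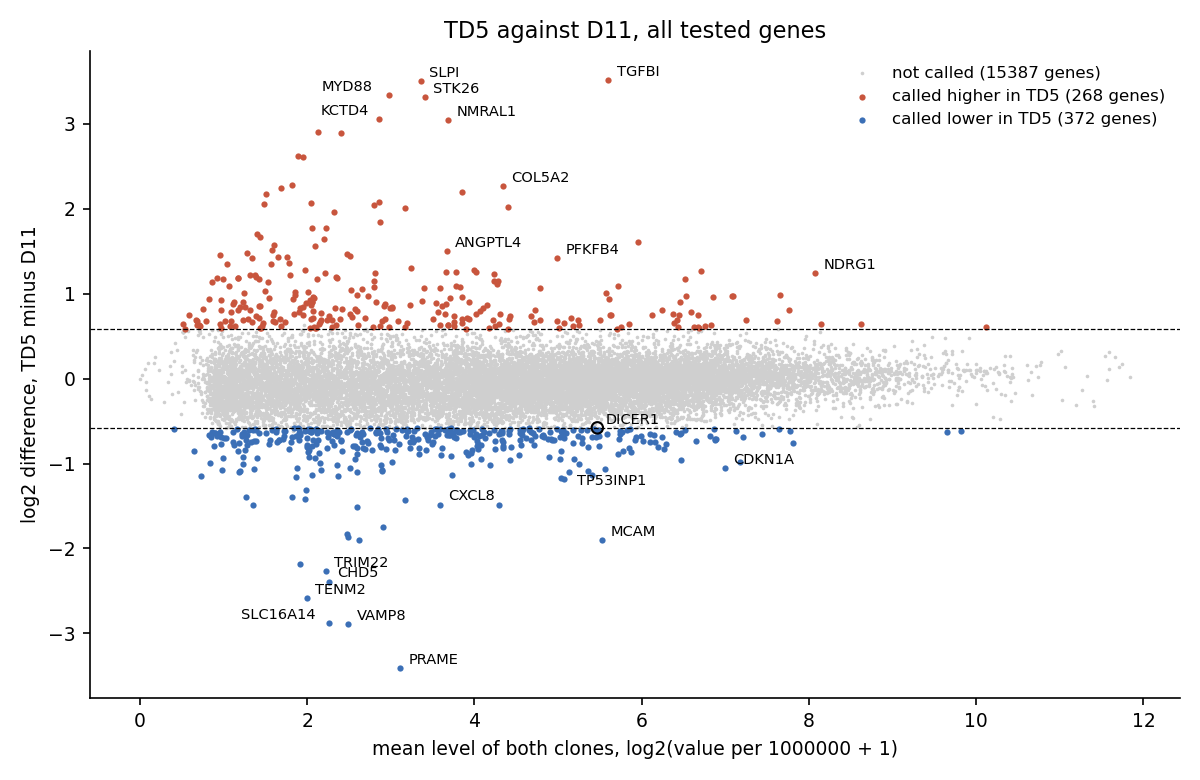
Log2 difference between TD5 and D11 against the mean level of both clones, one point per tested gene, with the 268 genes called higher in TD5 and the 372 called lower in color. Dashed lines mark 1.5-fold, and the circled gene is DICER1, which lies at the lower line.

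The genes with the largest gains in TD5 were led by TGFBI. The genes with the largest changes in either direction were chosen only where the libraries of the clones did not overlap. TGFBI (chromosome 5), a secreted matrix protein induced by TGF-beta, was at 150, 137 and 123 in D11 and at 1805, 1704 and 1790 in TD5, a ratio of 12.9 between the means. All 3 TD5 libraries stood far above D11, near the means of TPC1 (2114) and WB1 (2241). SLPI, a secreted inhibitor of leukocyte proteases, was at 11, 16 and 13 in D11 and at 382, 361 and 331 in TD5. MYD88, the adaptor that carries signals from Toll-like and interleukin-1 receptors, was at 7, 5 and 13 in D11 and at 281, 286 and 231 in TD5. For both genes the libraries of the clones were widely apart, and TPC1 and WB1 again sat with TD5, SLPI at 389 and 474 and MYD88 at 278 and 323. NMRAL1, an NADPH-binding protein, was at 36, 52 and 22 in D11 and at 408, 461 and 442 in TD5. The fitted log2 differences were 3.51 for TGFBI (SE 0.07, adjusted p = 1.98e-15), 3.50 for SLPI (adjusted p = 4.15e-13), 3.34 for MYD88 (adjusted p = 6.79e-12) and 3.04 for NMRAL1 (adjusted p = 1.9e-10).

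STK26, a serine/threonine kinase, was at 24, 17 and 15 in D11 and at 338, 322 and 438 in TD5, whereas the means of TPC1 and WB1 were 112 and 40.3. No TD5 library came near any other line. KCTD4 was at 10 to 13 in D11 and 215 to 251 in TD5, with WB1 at 285 but TPC1 at 58.3. FGB, the fibrinogen beta chain, was at 3 to 6 in D11 and 148 to 190 in TD5, with means of 134 and 73 in TPC1 and WB1. TPD52, a protein of vesicle traffic and lipid droplets, had the widest spread within TD5 among the leading genes, at 393, 294 and 686, against 83, 58 and 99 in D11. Its lowest TD5 library was still well above the highest of D11. COL5A2, a fibrillar collagen chain, was at 97 to 135 in D11 and 617 to 695 in TD5. For TPD52 and COL5A2 the means of TPC1 (516 and 766) and WB1 (661 and 840) again lay apart from D11.

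Genes with the largest losses in TD5 included some that were low in TD5 alone. PRAME, a cancer-testis antigen on chromosome 22, was at 311, 282 and 296 in D11 and at 5, 9 and 16 in TD5, a log2 difference of -3.41 (SE 0.12, adjusted p = 6.79e-12). It differed in every line, with a mean of 57.7 in TPC1 and 983 in WB1. VAMP8, a SNARE of endosomes and autophagosomes, was at 182, 179 and 174 in D11 and at 5, 3 and 13 in TD5. TLR4, the receptor for lipopolysaccharide, was at 166, 165 and 135 in D11 and at 19, 29 and 38 in TD5. DTX3, an E3 ubiquitin ligase of the Deltex family, was at 158 to 191 in D11 and 29 to 36 in TD5. For VAMP8, TLR4 and DTX3 it was TD5 that stood alone, since the TPC1 means of 267, 164 and 186 and the WB1 means of 322, 192 and 195 lay near or above D11. TLR4 and its adaptor MYD88 thus differed between the clones in opposite directions.

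In the remaining lower genes D11 was at the top of the 4 lines in most cases. CHD5, a chromatin remodeler, was at 126 to 156 in D11 and 9 to 13 in TD5, with 42 in TPC1 and 23.3 in WB1. TRIM22, an interferon-inducible ubiquitin ligase, was at 149, 124 and 131 in D11 and at 16, 8 and 13 in TD5, with 50 and 24.3 in TPC1 and WB1. MCAM (CD146), an adhesion molecule, was the most abundant of these genes, at 1497, 1385 and 1426 in D11 and at 327, 377 and 408 in TD5, a ratio of 3.87 between the means. None of these libraries overlapped between the clones, as the rule that chose these genes required. SRPX, the peroxisomal membrane gene PXMP4 and MRFAP1L1 fell by 2.19, 1.74 and 1.83 on the log2 scale, with adjusted p = 7.59e-09, 7.29e-08 and 3.25e-08.

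**Figure D3:**
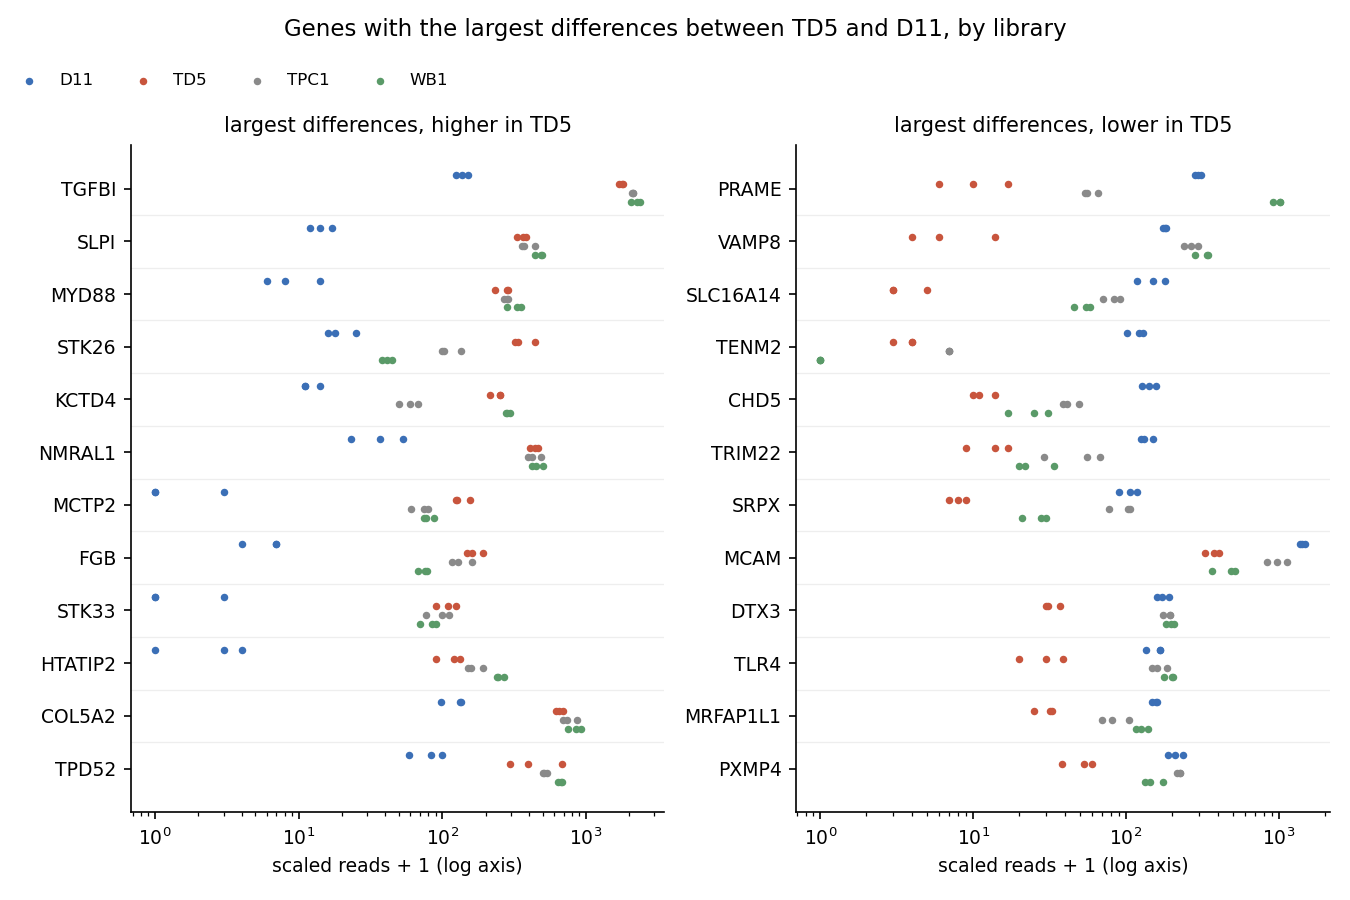
Scaled reads (plus 1, log axis) of the 12 genes with the largest differences in each direction, for every library of D11, TD5, TPC1 and WB1. For TGFBI, SLPI, MYD88 and NMRAL1 only D11 is apart from the other lines, whereas for VAMP8, DTX3 and TLR4 only TD5 is.

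Some genes were on in one clone and at the floor in the other, meaning at most 3 reads in each library of one clone and at least 2 per 1000000 in each library of the other. The genes were chosen on the same reads that give the ratios below, so large ratios follow from the choice. The intervals pool the 3 libraries of a clone and cover counting error only, not the spread between libraries. In D11, 6 genes were at the floor. MCTP2, a C2-domain protein of the endoplasmic reticulum, had 1 read over the 3 D11 libraries and 286 reads over the 3 TD5 libraries, a ratio of 319 with a 95% exact counting interval of 56.9 to 12660. The kinase gene STK33 had 1 read against 230, and HTATIP2, an oxidoreductase described as a metastasis suppressor, had 3 against 239. TRIM61, ZNF440 and AC106872.5 had 4, 3 and 1 reads in D11 and 183, 150 and 157 in TD5. All 6 were expressed in TPC1 and in WB1, where ZNF440 was the lowest, at 13 to 20. In TD5, 2 genes were at the floor. SLC16A14, of the monocarboxylate transporter family, had 354 reads in D11 and 5 in TD5 (ratio 63.4, interval 26.9 to 196), and TENM2, an adhesion protein of the teneurin family, had 279 and 5 (interval of the ratio 21.2 to 155). TENM2 was at 6 in each TPC1 library and at 0 in each WB1 library, so among these lines D11 alone expressed it clearly.

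Over all called genes neither clone was simply the outlier. Of the 268 genes called higher in TD5, D11 had the lowest mean of the 4 lines for 219 and TD5 the highest for 155. Of the 372 called lower, D11 had the highest mean for 284 and TD5 the lowest for 282. On the log scale TPC1 lay nearer to TD5 for 151 of the 268 higher genes and for 229 of the 372 lower ones. WB1 lay nearer to TD5 for 187 of the higher genes and for 151 of the lower ones. Both lines were nearer to TD5 for 115 higher and 99 lower genes, and both nearer to D11 for 45 and 91. These counts are a description, since the lines entered one fit and no difference from TPC1 or WB1 was tested.

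Apart from DICER1, 16 genes of the microRNA pathway were tested. Of these 0 were called by limma in either direction (3.99% of all genes were). Without the minimum fold 3 were lower at adjusted p under 0.05 (14.8% of all genes), and the median was -0.06. The range ran from -0.38 for the Argonaute AGO4 to 0.26 for TARBP2, a partner of Dicer1 in precursor cleavage. AGO2, the slicing Argonaute, was at 2942, 3085 and 3189 in D11 and at 2495, 2607 and 2861 in TD5, a difference of -0.21 (adjusted p = 0.0333). DROSHA, which makes the precursors in the nucleus, was at 1381 to 1440 in D11 and 1500 to 1579 in TD5 and did not pass the test. Among 19 tested let-7 targets 0 were called and the median was -0.13, which shrank to -0.00 under the GC correction. HMGA2, the best known of them, had overlapping libraries, at 2033 to 2471 in D11 and 1391 to 2662 in TD5.

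Host transcripts of microRNAs are the long RNAs from which some primary microRNAs are cut, and 4 of the 16 tested by name were called (3.99% of all genes). They were chosen after their values were seen. MIR222HG was at 160, 184 and 202 in D11 and at 78, 65 and 82 in TD5, a difference of -1.09 (SE 0.16, adjusted p = 0.000224). MIR34AHG, the host of a microRNA induced by p53, was at 114, 118 and 86 in D11 and at 43, 71 and 48 in TD5 (-0.78, adjusted p = 0.00183). MIR210HG, the host of a microRNA induced by hypoxia, went the other way, from 51, 61 and 75 in D11 to 197, 127 and 209 in TD5 (1.25, adjusted p = 0.000357). None of the 3 overlapped between the clones. MIR3681HG was also higher, at 23 to 32 against 7 to 15. Mature microRNAs chosen from those inside the first 3 hosts, on the same strand, are printed from RefSeq (GRCh38.p14). The seed, bases 2 to 8, is in capitals, because it decides which mRNAs each could pair with.
miR-221-3p in MIR222HG: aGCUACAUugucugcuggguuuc
miR-222-3p in MIR222HG: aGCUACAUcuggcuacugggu
miR-34a-5p in MIR34AHG: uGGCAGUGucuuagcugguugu
miR-210-3p in MIR210HG: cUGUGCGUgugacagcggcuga
miR-221-3p and miR-222-3p share one seed, and the other printed seeds differ. Whether the mature forms followed their hosts was not tested.

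Targets of the transcription factor p53 were lower in TD5 as a group. Of 30 tested targets 12 were called lower and 0 higher, beside 2.32% and 1.67% of all genes, and all 30 had a difference below 0. The median was -0.42, and it ranged from -0.47 to -0.36 over the alternative settings, against -0.05 for all genes. At adjusted p under 0.05 alone 23 of the 30 were lower (14.8% of all genes), and for 25 the TD5 libraries all lay below the D11 libraries (22.7% of all genes). With median-of-ratios scaling, the GC correction or the length correction 10 were called lower.

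CDKN1A, the p21 inhibitor of cyclin-dependent kinases, was at 3622, 3458 and 3197 in D11 and at 1503, 1748 and 1676 in TD5, a difference of -1.05 (SE 0.10, adjusted p = 2.79e-06). MDM2, the ubiquitin ligase that degrades p53, was at 3471, 3945 and 3966 in D11 and at 1861, 1668 and 2257 in TD5. TP53INP1, a stress protein that promotes p53 activity, was at 918, 820 and 1041 in D11 and at 426, 297 and 574 in TD5. The libraries of the clones were apart for all 3 genes, with D11 means about 2 times those of TD5. EDA2R, a death-domain receptor, was at 517 to 596 in D11 and 248 to 301 in TD5. The other called targets were the antiproliferative BTG2, the sestrin SESN1, the ribonucleotide reductase subunit RRM2B, ZMAT3, the death receptor FAS, the BH3-only protein BBC3, TIGAR and FDXR, with differences from -0.95 to -0.59. PLK2, PMAIP1 and PERP, also targets, differed by -0.07, -0.10 and -0.03 and did not pass the test. For all 12 called targets D11 had the highest mean of the 4 lines, as for 284 of the 372 genes called lower in all. For 10 of the 12 TD5 had the lowest mean, as for 282 of the 372. CDKN1A, for example, averaged 2699 in TPC1 and 1949 in WB1.

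Genes of the S phase and G2/M lists showed mostly small differences. CCNE2, a cyclin that drives entry into S phase, fell by 0.69 on the log2 scale, from 1313, 1549 and 1600 in D11 to 912, 773 and 1081 in TD5. CLSPN, a replication checkpoint mediator, fell by 0.59. These were the 2 genes called among 50 of the S phase list, with none higher, or 4% beside 3.99% of all genes. At adjusted p under 0.05 alone 14 were lower (14.8% of all genes) and 0 higher, and 42 were below 0. With the GC correction neither was called. The median of that list was -0.14. The 40 genes of the G2/M list held 0 calls, but 15 were higher at adjusted p under 0.05 (8.43% of all genes) and 33 were above 0, with a median of 0.19. MKI67, the proliferation marker, averaged 9959 ± 665 in D11 and 10251 ± 329 in TD5 (SD, n = 3). Of 20 cyclins and CDK inhibitors 0 were called higher and 2 lower (1.67% and 2.32% of all genes), CCNE2 and, with a larger difference of -1.05, CDKN1A. In the apoptosis list CASP1, the inflammatory caspase, was higher, at 7, 3 and 3 in D11 and 27, 29 and 24 in TD5. BIRC2, an inhibitor of apoptosis, was lower, at 1574 to 1855 in D11 and 936 to 1283 in TD5. BCL2A1, an anti-apoptotic BCL2 relative, was at 31 to 48 in D11 and 19 to 23 in TD5, but with the GC correction its adjusted p was 0.0731, and BIRC2 was then under the minimum fold at -0.50.

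Genes of the response to hypoxia and of glycolysis were higher in TD5. Of 39 tested, 11 were called higher and 0 lower (1.67% and 2.32% of all genes), and the median was 0.44, with a range of 0.37 to 0.52 over the alternative settings. At adjusted p under 0.05 alone 30 of the 39 were higher (8.43% of all genes). For 31 the TD5 libraries all lay above the D11 libraries (14.9% of all genes). Under the GC correction 14 were called, and 0 were called lower in that setting.

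ANGPTL4, a secreted regulator of lipoprotein lipase, had the largest difference of the list, from 118, 120 and 99 in D11 to 330, 324 and 413 in TD5 (SE of the log2 difference 0.18, adjusted p = 2.27e-05). PFKFB4, which sets the level of an activator of glycolysis, was at 334, 249 and 381 in D11 and at 912, 642 and 1164 in TD5. NDRG1, a stress-induced gene, was at 3280, 2664 and 3468 in D11 and at 8379, 5502 and 8879 in TD5, and the mitophagy receptor BNIP3 was at 1587 to 1947 and 2808 to 4430. Every TD5 library was above every D11 library for these 4 genes. The rest of the called genes were ADM, BHLHE40, PDK1, the glucose transporter SLC2A1, the lactate transporter SLC16A3, VEGFA and ENO2, with differences from 0.62 to 0.79. The glycolytic enzymes ALDOA, GPI and PGK1 were 0.44 to 0.49 higher and below the minimum fold. PFKFB3 and SLC2A3, likewise induced by hypoxia, differed by -0.05 and -0.04 and did not pass the test.

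These genes also varied with the replicate number. Of the 11 called hypoxia genes, replicate 2 was the lowest library for 9 in D11 and for 10 in TD5. The mean of the whole list on the log2(value per 1000000 + 1) scale was 6.75, 6.63 and 6.80 in the D11 libraries and 7.26, 7.05 and 7.37 in the TD5 libraries, so the clones did not overlap. It was 6.72 to 6.86 in TPC1 and 6.95 to 7.22 in WB1. Oxygen or cell density at harvest is not given in the sources used here, and the part of either was not tested.

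**Figure D4:**
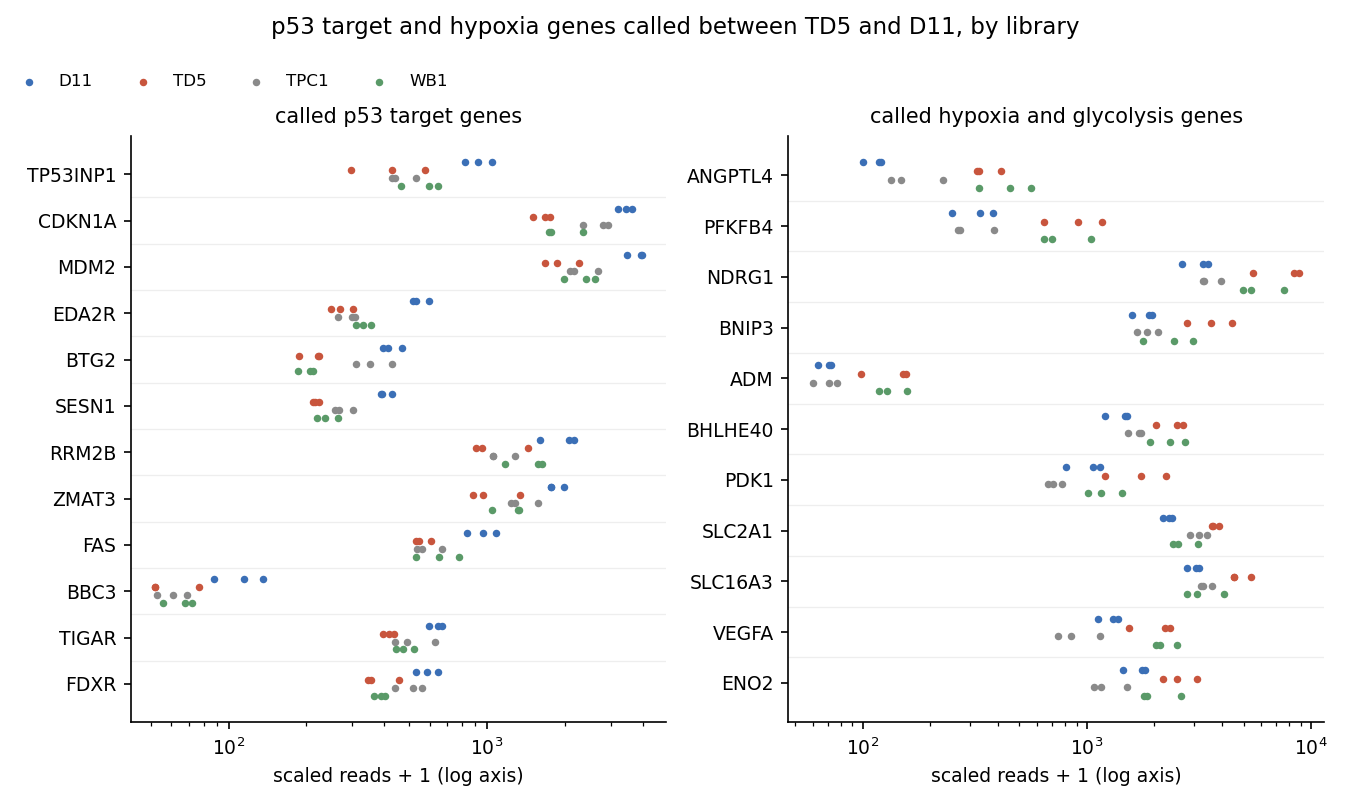
Scaled reads (plus 1, log axis) of the 12 called p53 targets and the 11 called hypoxia and glycolysis genes, for every library of D11, TD5, TPC1 and WB1. The D11 mean is the highest of the 4 lines for each p53 target, though single libraries of other lines reach into its range, and TD5 libraries lie above D11 libraries for the hypoxia genes.

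Several matrix genes were higher in TD5. Of 31 collagens and matrix proteins 6 were called higher and 1 lower (1.67% and 2.32% of all genes). At adjusted p under 0.05 alone 15 were higher and 4 lower (8.43% and 14.8% of all genes). The median of the list was 0.26 and ranged from 0.07 to 0.32 over the alternative settings. COL5A2, described above, led with 2.26. COL4A4, a basement membrane collagen chain, was at 13, 23 and 32 in D11 and at 106, 123 and 145 in TD5 (1.78, adjusted p = 9.33e-07). The small proteoglycan BGN was at 22, 26 and 21 in D11 and at 86, 124 and 114 in TD5, and COL16A1 was at 84, 104 and 81 in D11 and at 251, 252 and 242 in TD5. None of the 3 overlapped. COL7A1 and osteopontin (SPP1) were the other higher genes, and COL13A1, a transmembrane collagen, was lower, at 590 to 648 in D11 and 349 to 422 in TD5. For all 6 higher genes D11 had the lowest mean of the 4 lines, as for 219 of the 268 genes called higher in all. FN1, the most abundant of the list, averaged 72831 in D11 and 74046 in TD5 and did not differ beyond its spread.

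Among 27 proteases and inhibitors, 3 were called higher and 2 lower (1.67% and 2.32% of all genes). The interstitial collagenase MMP1 (17 to 19 in D11, 35 to 58 in TD5), the protease inhibitor SERPINE2 (1420 to 1578, 2209 to 2818) and cathepsin B (CTSB) were higher. ADAMTS6 (363 to 415, 180 to 223) and ADAM8 (141 to 169, 50 to 96) were lower. Of 20 integrins and laminins only ITGA11, a collagen receptor subunit, was called (3.99% of all genes were). It was at 149, 124 and 162 in D11 and at 65, 58 and 47 in TD5. In the list of epithelial-mesenchymal transition, CDH6, a classical cadherin, was higher, from 219, 193 and 268 to 493, 269 and 578, with 1 TD5 library barely above the highest D11 library. SNAI2, a repressor of epithelial genes, was lower, from 1297 to 1493 in D11 to 779 to 1082 in TD5, and was under the minimum fold with median-of-ratios scaling (-0.55), the length correction (-0.53) and the GC correction (-0.41). The list as a whole had a median of 0.02, which turned to -0.01 with the GC correction. Of 27 genes of the TGF-beta list 1 was called higher, TGFBI, and 3 lower (1.67% and 2.32% of all genes). The lower genes were TAGLN, an actin-binding protein (77 to 90 in D11, 32 to 51 in TD5), SKIL, a feedback repressor (663 to 727, 371 to 621), and ID3 (1006 to 1077, 486 to 857). Lower calls numbered 1 with median-of-ratios scaling and 0 with a pseudocount of 4. The median of that list was -0.14.

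Chemokines that act on neutrophils were lower in TD5. CXCL8 was at 315, 409 and 280 in D11 and at 81, 141 and 101 in TD5, a difference of -1.48 (SE 0.21, adjusted p = 0.00011). CXCL1 was at 933, 1004 and 876 in D11 and at 404, 527 and 507 in TD5, and CXCL2 at 149, 164 and 118 in D11 and 62, 72 and 104 in TD5. No libraries overlapped, and both TPC1 (397 for CXCL8, 862 for CXCL1) and WB1 (314 and 913) stood close to D11. CXCL3 was low, at 20, 31 and 22 in D11 and 12, 5 and 9 in TD5, and without D11 replicate 2 its adjusted p was 0.0554. These 4 genes are neighbors among tested genes on chromosome 4. The cytokine IL11 and BIRC2 were also lower, and the co-stimulatory receptor TNFRSF9 was higher, at 92 to 105 in D11 and 149 to 180 in TD5. Thus of 25 NF-kB targets and cytokines 1 was called higher and 6 lower (1.67% and 2.32% of all genes), with a median of -0.13. TRIM22 was the 1 gene called of 34 of the interferon list (3.99% of all genes were called). The median of that list, -0.02, became 0.03 with median-of-ratios scaling. In antigen presentation TAP2, a subunit of the peptide transporter, was at 2289, 2332 and 2341 in D11 and at 1114, 1270 and 1177 in TD5. It was the 1 call among 17 genes (3.99% of all genes were called). Its partner TAP1 had overlapping libraries, at 530 to 566 and 502 to 571.

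Several receptor and ligand genes differed. IGFBP7, a secreted protein that binds insulin-like growth factors, was at 1005, 985 and 1004 in D11 and at 475, 463 and 524 in TD5 (-1.01, SE 0.07, adjusted p = 4.63e-08), and TPC1 and WB1 averaged 1206 and 1117. AREG, a ligand of the EGF receptor, was at 35 to 47 in D11 and 9 to 16 in TD5. NRG4, KITLG and FGF1, which are ligands too, were also lower, and the receptor FGFR4 was higher, so that 5 of 33 genes of this list were called lower and 1 higher (2.32% and 1.67% of all genes). With the GC correction FGFR4 (0.47) and KITLG (-0.48) were under the minimum fold. NOTCH3, a Notch receptor, was at 113, 122 and 114 in D11 and at 265, 259 and 271 in TD5. HES2 was lower (51 to 56, 16 to 38), so that of 20 Notch genes 1 was called higher and 1 lower (1.67% and 2.32% of all genes), with a median of -0.07. The Wnt ligand WNT3 was lower (275 to 299, 171 to 189) and TNFRSF19, a Wnt target, was higher (7 to 16, 29 to 41). DUSP6, a feedback phosphatase of ERK, fell by 0.64, from 776 to 862 in D11 to 425 to 572 in TD5. SPRY1 was higher (30 to 35, 52 to 89). DUSP6 and SPRY1 were the calls among 20 genes of the MAPK output list (3.99% of all genes were called), whose median was -0.01. CTGF, a matricellular target of YAP, fell by 0.59, and with median-of-ratios scaling, the GC correction or the length correction its difference of -0.57 to -0.52 was under the minimum fold.

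Axon guidance genes were more often higher than lower among the calls, 6 against 2 of 40 tested (1.67% and 2.32% of all genes), with a median of 0.12. With the replicate block 5 were higher, since EPHA5 did not enter that fit. EPHB1, an Eph receptor, was at 142, 171 and 150 in D11 and at 415, 366 and 285 in TD5. NTN1, the netrin ligand, was at 351 to 393 in D11 and 637 to 662 in TD5. The semaphorin SEMA5A and the ligand SLIT2 were also higher. SLIT3 was at 76, 102 and 106 in D11 and at 219, 152 and 183 in TD5, and without TD5 replicate 1 its adjusted p was 0.0501. The semaphorin receptor PLXNA2 and the ligand SEMA3C were lower. From the clustered protocadherins, adhesion genes best known from neurons, PCDHA4, PCDHAC2 and PCDHA8 were called higher and 0 lower of 40 tested (1.67% and 2.32% of all genes). They were at 2 to 10 scaled reads in D11 and at 13 to 26 in TD5, near the filter. They passed the filter through TPC1 and WB1, where their means were 16.7 to 46.3, and in the fit of the 6 libraries with the replicate block they were not tested and 0 protocadherins were called. The count depended on the scaling, with 7 called higher under median-of-ratios scaling, 9 under the GC correction, 16 under the length correction and 0 with a pseudocount of 4.

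In metabolism, EBP, an isomerase of cholesterol synthesis, was lower, at 707, 739 and 682 in D11 and at 419, 426 and 431 in TD5. SREBF1, the transcription factor of fatty acid synthesis, was higher, at 1717 to 1839 in D11 and 2683 to 2842 in TD5. These and SCD were the calls among 32 genes of the list (3.99% of all genes were called). Of 16 amino acid transporters 1 was called higher and 3 lower (1.67% and 2.32% of all genes). The amino acid transporter SLC6A15 had 1 read in D11 and 79 in TD5 over 3 libraries each (ratio 88.2, exact counting interval 15.4 to 3528). Its means in TPC1 and WB1 were 27.3 and 61 scaled reads. SLC7A11, the cystine transporter, was at 699, 875 and 910 in D11 and at 423, 419 and 501 in TD5, and the glycine transporter SLC6A9 was lower too. CBR1, a carbonyl reductase, was at 611, 522 and 538 in D11 and at 167, 175 and 216 in TD5, with 561 and 553 in TPC1 and WB1. The drug exporter ABCC3 was higher. CBR1, SLC7A11 and ABCC3 were the calls among 24 NRF2 targets. Of 30 genes of the unfolded protein and ATF4 response 0 were called, beside 3.99% of all genes.

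The 15 genes encoded by mitochondria, leaving out tRNAs, were all below 0, with a median of -0.24 and 0 calls, while 9 were lower at adjusted p under 0.05 (14.8% of all genes). Of the 22 mitochondrial tRNA genes 7 were called lower and 0 higher (2.32% and 1.67% of all genes), with a median of -0.51. Under the GC correction 1 was called lower and the median was -0.27, while 4 were called lower with the length correction and 11 with voom. Of 67 tested snoRNA genes 9 were called lower and 0 higher (2.32% and 1.67% of all genes). Lower calls numbered 4 under the GC correction, 3 under the length correction, 0 with a pseudocount of 4 and 21 with voom. These short RNAs carry no poly(A) tail of their own in the main, and snoRNAs lie in introns of other genes. Their reads in poly(A) libraries cannot be told apart from those of longer precursors or hosts.

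Zinc finger genes of the cluster at 19q13.41, a primate-rich group of repressors, went both ways, with 1 called higher and 3 lower of 17 tested (1.67% and 2.32% of all genes). With a pseudocount of 4 the calls were 0 higher and 1 lower. The median of the list was -0.16 and became -0.01 with the GC correction. ZNF616 had 60 reads in D11 and 1 in TD5 (ratio 53.7, exact counting interval 9.28 to 2157). ZNF614 was at 201, 192 and 190 in D11 and at 65, 95 and 110 in TD5, ZNF845 at 117 to 138 and 72 to 79, and ZNF480 rose from 29 to 49 to 69 to 106. Near-identical members of this family can share reads. KCNQ1OT1, an imprinted antisense RNA, was at 437, 555 and 411 in D11 and at 204, 228 and 227 in TD5. It was the 1 call among 14 imprinted genes (3.99% of all genes were called).

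No gene was called by limma in the lists of keratins (9 tested), thyroid differentiation (8), metallothioneins (5), S100 genes (10), replication-dependent histones (11) or other lineage markers (8). At adjusted p under 0.05 alone these 6 lists held 4, 3, 1, 3, 1 and 1 genes. Of all genes 3.99% were called, and 8.43% were higher and 14.8% lower at that adjusted p. Among the listed genes that passed it, 1 keratin and the metallothionein were lower and the rest higher. The 36 HOX genes listed in the table all failed the filter, and of 30 cancer-testis genes 2 passed it, PRAME being the one called.

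The genes that were also followed by RT-qPCR numbered 9, of which EPHA5 and PNMA2 were called between the clones. EPHA5, an Eph receptor, was at 2, 2 and 3 in D11 and at 23, 16 and 14 in TD5, and averaged 92.3 in TPC1. PNMA2, a paraneoplastic antigen, was at 3, 5 and 5 in D11 and at 24, 15 and 19 in TD5, and averaged 72.3 in TPC1. Both clones were below TPC1, D11 further than TD5, and both genes passed the filter only with libraries of other lines. CASP10 was at 9 to 16 in D11 and 2 to 6 in TD5, a ratio of 3 between the means. It too passed the filter only with libraries of another line, TPC1 (55 to 63). At this low level the pseudocount understates the change, and the fitted difference of -0.41 was below the minimum fold. ICAM1, SMIM10, ZNF28, ZNF468 and LINC01234 were at 16 or below in every library of both clones and were not called, and PPP1R3C failed the filter. These genes were chosen by the study on these libraries and are no independent evidence.

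By position, the called genes were spread over the genome. The median difference of the 23 chromosomes, 1 to 22 and X, ran from -0.14 to 0.09, and 1.89% to 7.84% of the tested genes of a chromosome were called, the most on chromosome 4. In 257 windows of 10 megabases with at least 20 tested genes the medians ran from -0.32 to 0.16, and 176 windows lay within 0.1 of the median of all genes. There were 13 runs of 3 or more called neighbors in one direction, 4 of them with 4 genes. CNIH3, AC096537.1, AL596330.1 and DNAH14 on chromosome 1 (positions 224434660 to 225399292) were all lower. MYB, AHI1, PDE7B and AL138828.1 on chromosome 6 (135181308 to 136225751) were lower as well, with MYB at 27 to 36 in D11 and 8 to 18 in TD5. The 4 chemokine genes made up the run on chromosome 4 (73740519 to 74099196). The last run of 4 was 4 overlapping annotations of the non-coding RNA NEAT1 on chromosome 11, a scaffold of nuclear paraspeckles, which was at 3501, 3807 and 3577 in D11 and at 2065, 2175 and 2527 in TD5.

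The longest runs of higher genes held 3. EMC1, a subunit of the complex that inserts membrane proteins, was at 1106, 1107 and 1097 in D11 and at 2520, 2624 and 2419 in TD5. Its neighbor MRTO4, a ribosome assembly factor, was at 1570, 1632 and 1430 in D11 and at 2922, 3422 and 2780 in TD5, and AL035413.1 next to them was also higher. For EMC1 and MRTO4 the TPC1 means of 3063 and 3346 and the WB1 means of 2543 and 2826 lay with TD5, and D11 was apart. FXYD2, a regulator of the sodium pump, was at 32, 37 and 37 in D11 and at 243, 200 and 199 in TD5, and here TPC1 and WB1, at 52.3 and 47.3, lay with D11. FXYD2, the readthrough gene FXYD6-FXYD2 and AP000757.2 overlap, so their reads are not independent. LEMD1, BLACAT1 and CDK18 on chromosome 1 formed another such run.

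Under the alternative settings 145 called gene symbols were recomputed, those of the naming rule and those added to it, and 10 of them had an adjusted p above 0.05 in at least 1 alternative setting. For SCD, at 6999, 4698 and 6659 in D11 and at 11619, 7271 and 9823 in TD5, the adjusted p was 0.147 without D11 replicate 2, 0.124 without TD5 replicate 1 and 0.0783 without the filter. ID3 (lower, 1006 to 1077 against 486 to 857) reached 0.133 without TD5 replicate 1 and lay from 0.0553 to 0.0735 without D11 replicates 1, 2 or 3. HES2 (lower) reached 0.16 without TD5 replicate 2 and lay from 0.0509 to 0.0877 without D11 replicates 1, 2 or 3. SLC43A2 (lower) reached 0.123 without TD5 replicate 1 and lay from 0.0543 to 0.0927 without D11 replicates 1, 2 or 3. LEMD1 (higher) reached 0.11 without TD5 replicate 1 and lay from 0.0537 to 0.0831 without D11 replicates 1 or 2 or TD5 replicate 2. For SPRY1, higher at 52 to 89 against 30 to 35, the values were 0.0673 without TD5 replicate 1 and 0.0515 without D11 replicate 3, and for the annotation NEAT1_1 0.0598 without TD5 replicate 1 and 0.0612 without D11 replicate 2. CXCL3, SLIT3 and BCL2A1 are given above. By both thresholds 65 of the 145 lost the call in at least 1 alternative, mostly by dropping under the minimum fold. Lost calls numbered 52 with a pseudocount of 4, 20 with the GC correction, 16 with the length correction, 15 with median-of-ratios scaling, 21 without D11 replicate 2, 19 without TD5 replicate 1 and 9 to 11 without any other single library. Under the scaling or either correction 28 lost the call, among them CCNE2, CLSPN, FAS, TIGAR, FDXR, ENO2, SLC16A3, COL13A1, SKIL, IL11, WNT3, SREBF1, ZNF845, MYB, AHI1, AL138828.1 and DNAH14. These are limma values with Benjamini-Hochberg adjustment over all tested genes.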

How the data were processed

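RNA-seq was analysed in 3 libraries each of TD5 and D11, and TPC1 and WB1 (3 each) entered the same fit. The authors made stranded poly(A) libraries, mapped paired-end reads to GRCh38 with STAR 2.5.3a and counted reads per Ensembl gene with HTSeq 0.9.1 (strand setting not given in the sources used here). The deposited table holds a score, namely these counts per 20000000 reads of a library, rounded up. Reads behind the values were recovered from their steps in 11 of the 12 libraries.

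The design named the edgeR quasi-likelihood test for raw counts, which a scaled score does not allow. Instead limma 3.58.1 (R 4.3.3, limma-trend) was fitted to log2(value per 1000000 + 1) with a mean for each line. A gene entered the fit with 1 or more per 1000000 in 3 or more libraries. The pseudocount understates the change of low genes. Positions are from GRCh38. A called gene had an adjusted p (Benjamini-Hochberg over all tested genes) under 0.05 and a change of 1.5-fold or more. The procedure was tested on simulated data.

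The clones, gene lists and tests were chosen with earlier results of these data known. Genes named were DICER1, the 12 largest called changes in each direction with at least 5 per 1000000 and no overlap, up to 4 called members (or 2 abundant ones) of each of 39 lists, the RT-qPCR genes, the longest runs of neighbors and up to 6 genes on in one clone and at the floor in the other. Other names were added after their values were seen. Same-numbered libraries of D11 and TD5 deviated together (correlations of 0.11, 0.17 and 0.35), so the numbers were treated as pairs in an alternative fit, although D11 1 with TD5 2 gave 0.20. Alternatives covered the filter, pseudocount, libraries, thresholds, replicate block, scaling, GC content, transcript length, depth, voom and each library left out. Python 3.11.15 was used with pandas 2.3.3 and scipy 1.17.1.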

Additional observations from a re-analysis of the deposited data

How the results depend on the processing

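Over all alternatives, 3702 values of single named genes kept their side of the threshold, 83 lost and 47 gained an adjusted p under 0.05, and 0 called values reversed. The counts of calls moved more. Higher and lower genes were 268 and 372 as reported. They were 139 and 144 with a pseudocount of 4 and 1351 and 2370 without a minimum fold change, and 89 and 49 with a 2-fold minimum. Only 174 were higher with at least 5 per 1000000, and 627 were lower with a pseudocount of 0.1 and 584 with voom on the recovered reads. Lower calls were 228 with the GC correction and 247 with the length correction, and 228 and 242 when these were fitted with the replicate block. With each library left out in turn, the higher calls ranged from 260 to 310 and the lower calls from 328 to 645, the latter without TD5 replicate 3. The cause was not tested. The replicate block alone, which treats same-numbered libraries as pairs, gave 258 and 369 calls, 624 of them shared with the 640, against 440 shared under the GC correction, 515 under the length correction, 550 with median-of-ratios scaling and 524 without TD5 replicate 2, and it changed no call described other than those of the protocadherins, EPHA5, PNMA2 and CXCL3, which did not enter that fit. DICER1 stayed lower at an adjusted p under 0.05 in each alternative, with differences from -0.69 to -0.37. Depth limits genes near the floor of 3 reads, where 1 read more or less changes a fold.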
